A study of Mus musculus with 10 samples.

Results

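The 10 genes described here are the mouse insulin-like growth factor (IGF) ligands, their receptors and their binding proteins: Igf1, Igf2, Igf1r, Igf2r, Igfbp2, Igfbp3, Igfbp4, Igfbp5, Igfbp6 and Igfbp7. They were taken as every non-control probe whose gene name on the array was one of these symbols, which gave 19 probes of 56605, for 10 of 37074 gene names. Of the 19 probes, 17 passed the filter on dim probes, as did 30693 of all probes, and these 17 stood for 9 of the 10 genes; Igfbp2 had no probe that passed. RNA from cardiac tissue of male C57BL/6 mice was compared between 5 HIPK2 knockout and 5 wild-type samples, 1 Agilent 1-colour array each. The knockout carries a 56-base frameshift deletion in the second exon of Hipk2, made by CRISPR injection of embryos and expanded by crossing with C57BL/6 wild-type mice. Hipk2 encodes a nuclear serine/threonine kinase. All mice ate commercial chow under a 12 h light and 12 h dark cycle; ages are not given in the sources used here. Whether every replicate was its own mouse is not stated in the labels, and the p-values below cover the variation among the 10 samples, which may in part be technical. The question the design poses is whether the transcripts differ between knockout and wild-type heart tissue.

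IGF-1 and IGF-2 are small secreted hormones related to insulin. Both act through the receptor tyrosine kinase IGF1R, which signals to growth and survival through the PI3K and AKT kinases, whereas IGF2R binds IGF-2 and carries it to lysosomes for breakdown. IGF-binding proteins hold the ligands in the circulation and in tissue, extending their life or keeping them from the receptor, and in heart the system is known for its part in cardiomyocyte growth and survival.

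No kept probe of the 10 genes passed the test between genotypes. Of the 17 kept probes, 0 had an adjusted p under 0.05 (limma's moderated test, Benjamini-Hochberg adjustment over all 30693 kept probes), where 4.44% of all kept probes did. At an unadjusted p under 0.05 there was 1 of the 17, an Igf1r clone probe, against 26.1% of all kept probes. Under each of 20 alternative settings 0 of the probes passed, and 0 to 3 had an unadjusted p under 0.05. For every kept probe the knockout and wild-type values overlapped, where 4.41% of all kept probes had all knockout values below all wild-type values and 4.09% had them all above. The median log2 fold change, knockout minus wild type, was -0.08 over the 17 probes and 0.01 over all kept probes, with 12 of the 17 below 0 and 48.9% of all kept probes below 0. The median size of the difference, without its sign, was 0.25 for the 17 probes and 0.19 for all kept probes.

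All values below are scaled log2 signals, the log2 of the background-subtracted probe signal minus the log2 of the same array's 75th percentile, so that 0 stands for a signal at that percentile. Probes bind with different strength, so levels are compared between samples for a probe and never between probes. The brightest kept probe of a gene is called its lead probe. A missed threshold does not show that a transcript was equal in the genotypes, and the 95% interval of each difference is therefore given.

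The array as a whole set limits on these values. Array brightness differed between the genotypes before scaling, with a 75th percentile of 378 ± 75.3 intensity units in knockout and 499.5 ± 31.9 in wild-type arrays (SD, n = 5 each), and 45.8 to 58.3% of spots were well above background in knockout arrays against 55.7 to 60.4% in wild-type arrays. Slide 1 held wild-type replicates 1 and 2 alone, and slide 2 held the other 8 arrays. The lead Hipk2 probe read 1.30 to 1.88 in knockout and 1.18 to 1.96 in wild-type samples on the scaled log2 measure. The 3 Hipk2 probes differed by -0.01, 0.04 and 0.11 on the log2 scale (limma adjusted p of 0.960, 0.903 and 0.473). Where these probes lie relative to the deleted bases was not examined here. A probe outside those bases does not check the genotype. All 7 cardiomyocyte markers were well above background on all 10 arrays, and 0 spots were saturated. Tissue make-up varied by sample: the mean scaled log2 signal of 4 atrial markers ranged over -0.43 to 2.80 in knockout and -0.93 to 5.07 in wild-type samples, and that of the 4 detected of 6 fat markers over -5.04 to -2.96 and -4.17 to 0.29, with Adipoq and Plin1 below the filter. For other lists the genotypes did not overlap: the mean of 7 endothelial markers was 2.57 to 2.82 in knockout against 2.91 to 3.07 in wild-type samples. The cardiomyocyte list barely separated, with 7.854 to 8.228 against 7.512 to 7.848. Each of the 7 cardiomyocyte markers overlapped by itself and 0 passed. Myh6, Tnnt2, Tnni3, Actc1 and Pln read 0.65, 0.74, 0.47, 0.43 and 0.23 on the log2 scale, while Ttn and Ryr2 read -0.16 and -0.01. Their part in the values of the IGF genes was not tested beyond the fits with marker scores given here, and in bulk tissue fewer cells of a type and less RNA per cell cannot be told apart.

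Promoter sequences of Igf1, Igf2, Igf1r and Igfbp3 are shown because the results turn on these genes: the ligand with probes of opposite sign, a ligand and a binding protein compared across samples, and the receptor with unequal spread in the genotypes. They run from 250 bases before to 50 bases after a transcription start in RefSeq's mouse table (GRCm38.p6), written 5' to 3' on the gene's strand, with every GC box (GGGCGG on either strand) in capitals. The Igf1 window is chr10:87860861-87861160 (plus strand), the Igf2 window shown, 1 of 4 listed for that gene, is chr7:142657447-142657746 (minus strand), the Igf1r window is chr7:67952007-67952306 (plus strand) and the Igfbp3 window is chr11:7213874-7214173 (minus strand).
Igf1: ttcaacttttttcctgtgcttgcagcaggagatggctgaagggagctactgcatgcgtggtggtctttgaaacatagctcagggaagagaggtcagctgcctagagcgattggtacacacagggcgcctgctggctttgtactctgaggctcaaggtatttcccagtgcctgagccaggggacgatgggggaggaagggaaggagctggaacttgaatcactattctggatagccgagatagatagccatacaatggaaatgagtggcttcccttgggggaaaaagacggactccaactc
Igf2: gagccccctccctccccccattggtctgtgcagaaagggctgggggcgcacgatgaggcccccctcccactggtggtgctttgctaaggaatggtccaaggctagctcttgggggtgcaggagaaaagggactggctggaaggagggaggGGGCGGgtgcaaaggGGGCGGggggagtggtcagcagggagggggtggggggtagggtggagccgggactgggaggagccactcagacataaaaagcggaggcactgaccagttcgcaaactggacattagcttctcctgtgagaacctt
Igf1r: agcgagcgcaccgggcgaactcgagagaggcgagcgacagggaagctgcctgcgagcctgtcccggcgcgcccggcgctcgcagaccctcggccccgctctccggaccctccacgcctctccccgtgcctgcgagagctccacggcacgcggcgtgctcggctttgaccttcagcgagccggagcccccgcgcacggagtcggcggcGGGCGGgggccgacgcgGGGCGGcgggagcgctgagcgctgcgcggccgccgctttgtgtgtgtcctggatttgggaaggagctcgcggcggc
Igfbp3: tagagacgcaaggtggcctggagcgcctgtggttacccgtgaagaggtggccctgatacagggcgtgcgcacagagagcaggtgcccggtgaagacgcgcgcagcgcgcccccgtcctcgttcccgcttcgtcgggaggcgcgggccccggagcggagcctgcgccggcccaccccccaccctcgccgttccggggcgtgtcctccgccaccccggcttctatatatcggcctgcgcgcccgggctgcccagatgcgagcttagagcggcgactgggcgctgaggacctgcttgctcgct

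The Igf2 and Igf1r windows each held 2 GC boxes, and the Igf1 and Igfbp3 windows held none. All 10 genes had a window in the table, 14 windows in all. GGGCGG was found in 6 of these 14, in Igf1r, Igf2, Igf2r, Igfbp2 and Igfbp7, and in 35.7% of all 32851 windows of the same length. The TATA box letters TATAAA were found in the windows of Igfbp4 and Igfbp6 and in 13.6% of all windows. The letters TTCNNNGAA, the core of a site bound by STAT5, the transcription factor downstream of growth hormone, were in none of the 14 and in 8.30% of all windows. The letters GTAAACA, a core bound by FoxO factors, were also in none, and in 3.65% of all windows. CACGTG, the E-box, was in windows of Igf2r and Igfbp2 and in 7.15% of all windows, and TGACGT, the core letters of a cAMP response element, was in Igf2r and in 7.51%. Both strands were searched, and in 1 of the 14 windows matches to different motifs shared letters. A match or its absence says only which letters lie in these windows. The windows of the 10 genes had a median GC content of 64%, from 49.7% for 1 Igf2 window and Igfbp6 to 76% for Igf1r, against 52.7% over all windows, and a median of 16 CpG dinucleotides against 7.

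Igf1, the growth factor made in liver and locally in heart, gave opposite signs on its mRNA probes, neither beyond the spread of the samples. The lead probe, A_55_P2085979 (chr10:87378456-87378515 on the array's build mm9, designed on NM_184052), read -0.60, -0.12, 0.40, -0.14 and -0.26 in knockout replicates 1 to 5, against -0.26, -0.42, -0.76, -0.69 and -0.11 in wild-type replicates 1 to 5. Knockout replicate 3 was the highest of the 10 and wild-type replicates 3 and 4 the lowest, and the groups overlapped. Knockout replicate 3 was also the dimmest array and wild-type replicate 4 the brightest, with 75th percentiles of 286 and 542 intensity units. Wild-type replicate 3 had 462, the lowest of the wild-type arrays. The part of array brightness in the Igf1 values was not tested. The means were -0.14 ± 0.36 in knockout and -0.45 ± 0.28 in wild-type samples (SD, n = 5 each), a log2 fold change of 0.31 ± 0.19 (SE; 95% interval -0.11 to 0.72; limma adjusted p = 0.316).

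The other mRNA probe of Igf1, A_51_P147942 (chr10:87393516-87393575, NM_010512), lies further along the gene. Its values were -0.65, -0.27, -0.04, -0.72 and -0.19 in knockout samples, against -0.41, 0.03, -0.31, -0.14 and -0.31 in wild-type samples. Knockout replicates 1 and 4 were the lowest of the 10, and the other 3 knockout samples lay within the wild-type range. The log2 fold change was -0.15 ± 0.15 (SE; interval -0.47 to 0.18; limma adjusted p = 0.554), so the direction for Igf1 depends on which probe stands for it. A clone probe of Igf1, A_52_P306327 (chr10:87325382-87325441, AK050118), was well above background on 0 of 5 knockout and 4 of 5 wild-type arrays, with means of -4.85 and -4.54. It could carry no fold, since the bound was under 1, and its fitted value changed sign between background corrections, -0.31 with the software's own and 0.23 with normexp.

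Igf2, the fetal growth factor expressed from the paternal allele, varied more between samples than between genotypes. The lead probe, A_51_P516833 (chr7:149837115-149837174, minus strand), read 0.07, 0.05, -1.19, -0.97 and 0.47 in knockout samples, against 0.19, -0.17, -0.46, -0.39 and -0.90 in wild-type samples. Knockout replicates 3 and 4 were the lowest of all 10 samples and knockout replicate 5 the highest. The knockout values thus enclosed the wild-type ones. Knockout replicates 3 and 4 were also the dimmest arrays of the 10, with 75th percentiles of 286 and 322 intensity units. The part of array brightness in the Igf2 values was not tested. The means were -0.31 ± 0.72 and -0.35 ± 0.40 in knockout and wild-type samples (SD, n = 5 each), a log2 fold change of 0.03 ± 0.32 (SE; interval -0.68 to 0.75; limma adjusted p = 0.959). The other Igf2 probe, A_55_P2118173 (chr7:149839661-149839720), was also lowest in knockout replicates 3 and 4, at -3.65 and -3.84, and highest among knockout samples in replicate 5, at -2.07. It was well above background on 3 of 5 knockout and 5 of 5 wild-type arrays. Its log2 fold change was 0.02 ± 0.37 (SE; limma adjusted p = 0.976).

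**Figure D1:**
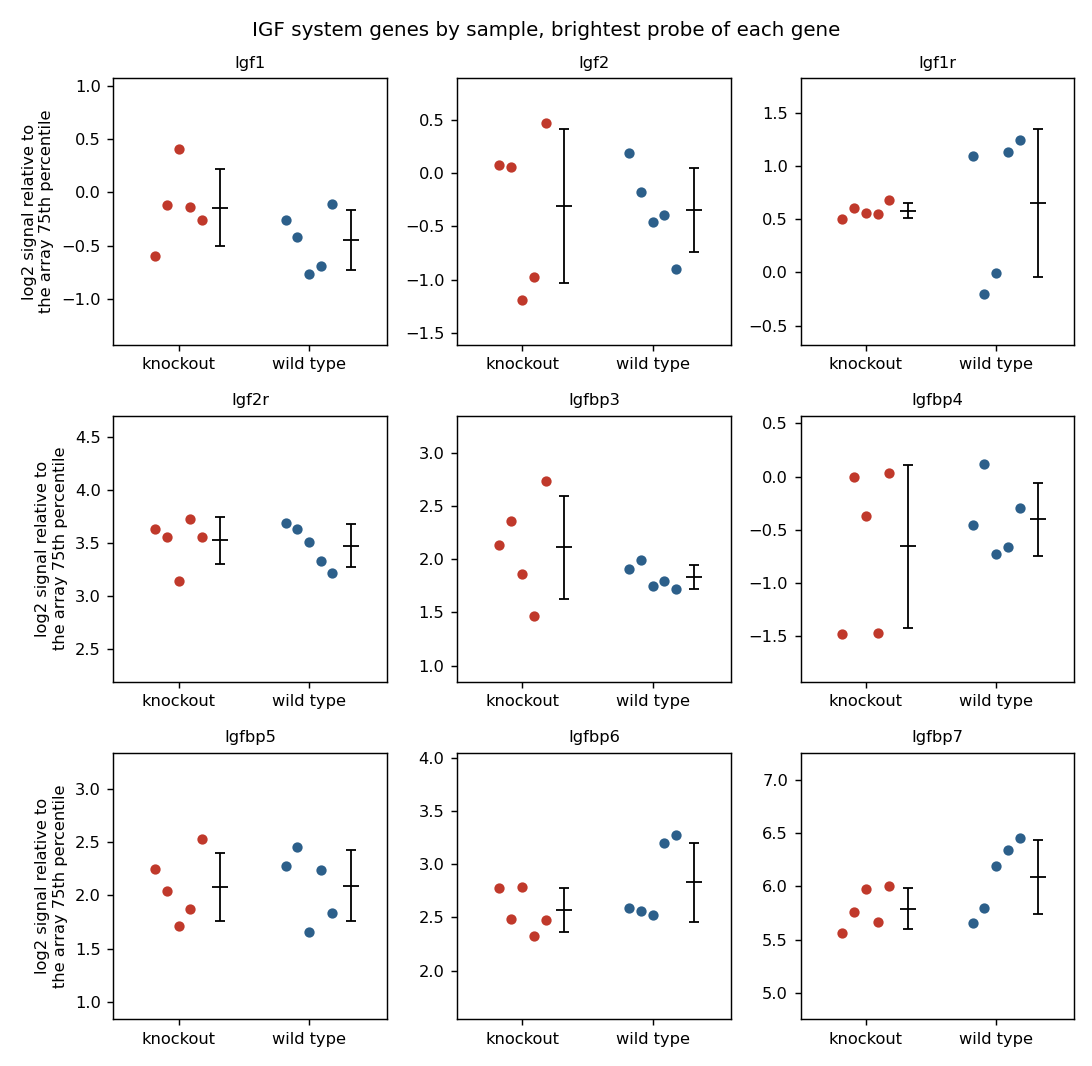
Scaled log2 signal (log2 relative to the array's 75th percentile) of the lead probe of each of the 9 genes with a kept probe, in 5 knockout samples (red, left) and 5 wild-type samples (blue, right), replicates 1 to 5 from left to right; each vertical axis has its own range of the same kind, and bars are mean and SD. The groups overlap for every gene; knockout Igf2 runs from -1.19 to 0.47, knockout Igf1r from 0.50 to 0.68 and wild-type Igf1r from -0.20 to 1.25.

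Igf1r, the tyrosine kinase receptor of both ligands, had close means in the genotypes and a wider spread in wild-type samples. The lead probe, A_55_P2736764 (chr7:75371371-75371430, plus strand), read 0.50, 0.61, 0.55, 0.55 and 0.68 in knockout samples, against 1.10, -0.20, -0.0028, 1.13 and 1.25 in wild-type samples. Wild-type replicates 1, 4 and 5 lay above every knockout sample, and wild-type replicates 2 and 3 below every one. The means were 0.58 ± 0.07 and 0.65 ± 0.70 in knockout and wild-type samples (SD, n = 5 each), a log2 fold change of -0.07 ± 0.28 (SE; interval -0.68 to 0.54; limma adjusted p = 0.891). The difference in spread was not tested.

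The second mRNA probe of Igf1r, A_51_P318365, lies just beyond the lead probe (chr7:75371556-75371615). It read -0.10, 0.00, 0.11, -0.20 and 0.02 in knockout samples, against 0.28, -0.37, 0.15, 0.46 and 0.59 in wild-type samples. Wild-type replicate 2 was again the lowest of the 10, and the SD was 0.12 in knockout against 0.37 in wild-type samples. All 5 knockout values were below the wild-type mean, with a log2 fold change of -0.25 ± 0.16 (SE; interval -0.61 to 0.10; limma adjusted p = 0.340).

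Both remaining Igf1r probes were designed on cDNA clones that map before the mRNA probes, and both were dim. A_52_P668647 (chr7:75332515-75332574, AK044980) read -3.79, -3.90, -3.52, -4.79 and -3.74 in knockout samples, against -3.34, -3.51, -3.40, -3.62 and -3.45 in wild-type samples. It was well above background on 2 of 5 knockout and 5 of 5 wild-type arrays, and knockout replicate 4 was the lowest. Its log2 fold change of -0.49 ± 0.20 (SE; interval -0.93 to -0.04) was the 1 value of the 17 with an unadjusted p under 0.05 (limma's moderated test across all kept probes, adjusted p = 0.162), and with normexp background correction it was 0.05. The other clone probe, A_55_P2804885 (chr7:75332796-75332855, AK155079), differed by -0.27 ± 0.22 (SE; limma adjusted p = 0.459) and by 0.16 with normexp, again with 2 of 5 knockout arrays well above background.

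**Figure D2:**
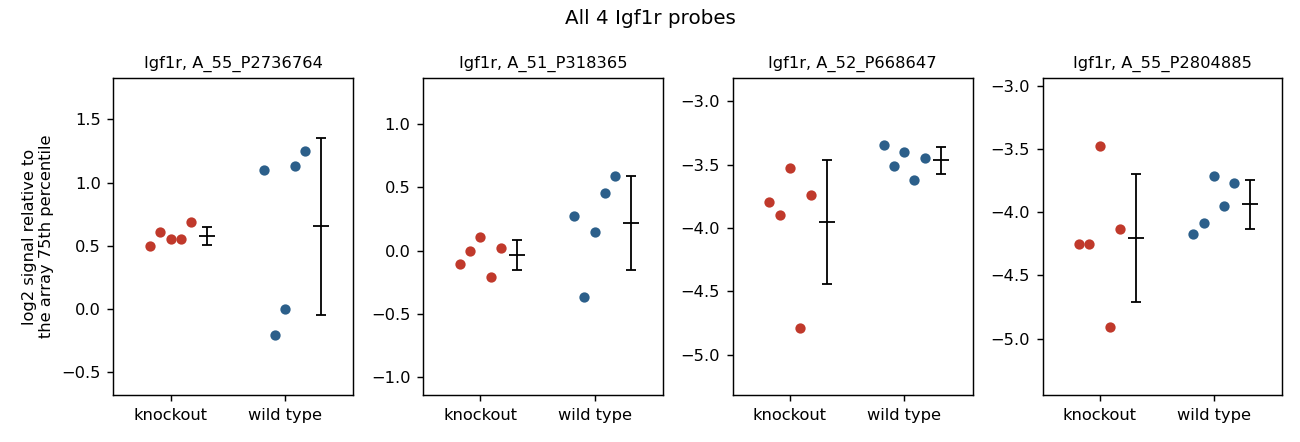
Scaled log2 signal of the 4 Igf1r probes in knockout samples (red, left) and wild-type samples (blue, right), with mean and SD; the vertical axes differ in position. On the lead probe the SD is 0.07 in knockout and 0.70 in wild-type samples, and on the second mRNA probe 0.12 and 0.37, while on the dim clone probe A_52_P668647 the knockout SD of 0.49 exceeds the wild-type SD of 0.11.

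Igf2r, which clears IGF-2 by carrying it to lysosomes, did not separate the genotypes. Its only probe, A_51_P125467 (chr17, minus strand, where the array file places it at 12875253-12875263), read 3.64, 3.56, 3.15, 3.72 and 3.56 in knockout samples, against 3.69, 3.63, 3.51, 3.33 and 3.22 in wild-type samples. Knockout replicate 3 was the lowest of the 10 and stood apart from the other 4 knockout samples, which lay together near the top of the wild-type range. The means were 3.52 ± 0.22 and 3.48 ± 0.20 in knockout and wild-type samples (SD, n = 5 each), a log2 fold change of 0.05 ± 0.13 (SE; interval -0.24 to 0.34; limma adjusted p = 0.845).

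Igfbp2, a binding protein abundant in fetal tissue and in liver, was below the filter. Its probe, A_55_P2056729, has the sequence below at chr1:72898677-72898736 (mm9, plus strand), shown because it is the single probe that stands for the gene; the capitals mark a TAA stop codon at its end, and the reading frame that ends there has no other stop.
Igfbp2 probe: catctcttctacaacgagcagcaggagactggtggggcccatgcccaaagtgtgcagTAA
It was well above background on 0 of 5 knockout and 2 of 5 wild-type arrays, with scaled log2 signals of -5.05, -6.05, -5.24, -5.27 and -4.94 in knockout samples, against -5.93, -5.80, -5.18, -4.54 and -4.68 in wild-type samples. The groups overlapped, and no fold can be given.

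Igfbp3, the main carrier of the ligands in blood, read higher in 4 of 5 knockout samples than the wild-type mean, without passing the test. The lead probe, A_55_P2803213 (chr11:7106193-7106252, minus strand), read 2.13, 2.36, 1.86, 1.47 and 2.73 in knockout samples, against 1.91, 1.99, 1.75, 1.79 and 1.72 in wild-type samples. The wild-type values were close together, while knockout replicate 4 lay below all of them and replicates 1, 2 and 5 above all of them. The means were 2.11 ± 0.48 in knockout and 1.83 ± 0.11 in wild-type samples (SD, n = 5 each), a log2 fold change of 0.28 ± 0.20 (SE; interval -0.16 to 0.72; limma adjusted p = 0.397). A further Igfbp3 probe, A_55_P1992715, was well above background on 0 of 5 arrays of each genotype.

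Igfbp4, which binds the ligands in tissue and is cut by the protease PAPP-A, was low in knockout replicates 1 and 4 on both of its probes. The lead probe, A_52_P257502 (chr11:98913334-98913393, plus strand), read -1.47, -0.0014, -0.37, -1.47 and 0.04 in knockout samples, against -0.45, 0.12, -0.73, -0.66 and -0.30 in wild-type samples. The other 3 knockout samples lay within the wild-type range. The log2 fold change was -0.25 ± 0.33 (SE; interval -0.97 to 0.47; limma adjusted p = 0.652). On A_51_P398971 (chr11:98909591-98909650) knockout replicates 1 and 4 read -2.76 and -2.55 and the other knockout samples -1.45 to -1.17, against -2.05 to -1.33 in wild-type samples, and the log2 fold change was -0.08 ± 0.32 (SE; limma adjusted p = 0.894). The mean signal of 8 fibroblast markers was also lowest in those knockout samples, 2.90 and 2.82, where the other 3 knockout samples had 3.25 to 3.70 and the wild-type samples 3.33 to 3.54. The same holds for other lists: the macrophage mean was 1.43 in both of those samples and at least 1.76 in each of the other 8, and the endothelial mean was 2.57 and 2.61 in them and at least 2.73 in the other 8. With which of these lists the Igfbp4 values moved cannot be told apart.

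Igfbp5, a binding protein held in the extracellular matrix and the neighbour of Igfbp2 on chromosome 1, did not separate the genotypes. The lead probe, A_52_P281702 (chr1:72904829-72904888, minus strand), read 2.25, 2.04, 1.72, 1.87 and 2.53 in knockout samples, against 2.28, 2.45, 1.65, 2.24 and 1.83 in wild-type samples. The log2 fold change was -0.01 ± 0.19 (SE; interval -0.43 to 0.40; limma adjusted p = 0.978). Its second probe, A_66_P101782, differed by -0.02 ± 0.18 (SE; limma adjusted p = 0.951), with knockout values of -2.82 to -2.10 against -2.85 to -2.07 in wild-type samples.

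Igfbp6, a binding protein with a preference for IGF-2, had all 5 knockout values below the wild-type mean. Its probe, A_66_P139546 (chr15:101979852-101979911, plus strand), read 2.78, 2.49, 2.78, 2.32 and 2.47 in knockout samples, against 2.58, 2.56, 2.53, 3.20 and 3.27 in wild-type samples. Wild-type replicates 4 and 5 stood above the other 8 samples, and the remaining wild-type samples lay inside the knockout range. The log2 fold change was -0.26 ± 0.17 (SE; interval -0.64 to 0.12; limma adjusted p = 0.364).

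Igfbp7, a secreted protein of vessels and connective tissue that binds IGFs weakly, had the smallest adjusted p among the lead probes. Its probe, A_51_P472292 (chr5:77778355-77778414, minus strand), read 5.56, 5.76, 5.97, 5.66 and 6.00 in knockout samples, against 5.66, 5.80, 6.19, 6.34 and 6.45 in wild-type samples. All 5 knockout values were below the wild-type mean, and wild-type replicates 3, 4 and 5 lay above every knockout sample. Wild-type replicates 1 and 2, the arrays of slide 1, lay among the knockout samples. The means were 5.79 ± 0.19 in knockout and 6.09 ± 0.35 in wild-type samples (SD, n = 5 each), a log2 fold change of -0.29 ± 0.16 (SE; interval -0.66 to 0.07; limma adjusted p = 0.277). Over 20 alternative settings the log2 fold change was between -0.53 and -0.13 and the adjusted p between 0.0528 and 0.718, the smallest with slide as a block. The value nearest 0, -0.13, came from the fit with the atrial score as a covariate (limma adjusted p = 0.718). That score was the mean of Myl7, Myl4 and Sln, without Nppa of the atrial list. Myl7, Myl4 and Sln differed by -3.13, -1.98 and -3.00 on the log2 scale (limma adjusted p of 0.246, 0.190 and 0.265). Nppa differed by 0.03 (limma adjusted p = 0.964), so the score does not stand for the whole list. With the fat score added, the log2 fold change of Igfbp7 was -0.25 (limma adjusted p = 0.548). Igfbp7 had an unadjusted permutation p under 0.05 with several marker lists, but none of these relations passed adjustment, as given further on. Among those lists the endothelial markers Kdr, the main VEGF receptor, and Emcn fell, by 0.80 ± 0.13 and 0.41 ± 0.10 on the log2 scale (SE; limma adjusted p of 0.0161 and 0.0466), the 2 of 7 endothelial markers that passed. Of all kept probes, 2.76% passed and were lower in knockout. Whether the fall of Kdr and Emcn bears on Igfbp7 was not tested.

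**Figure D3:**
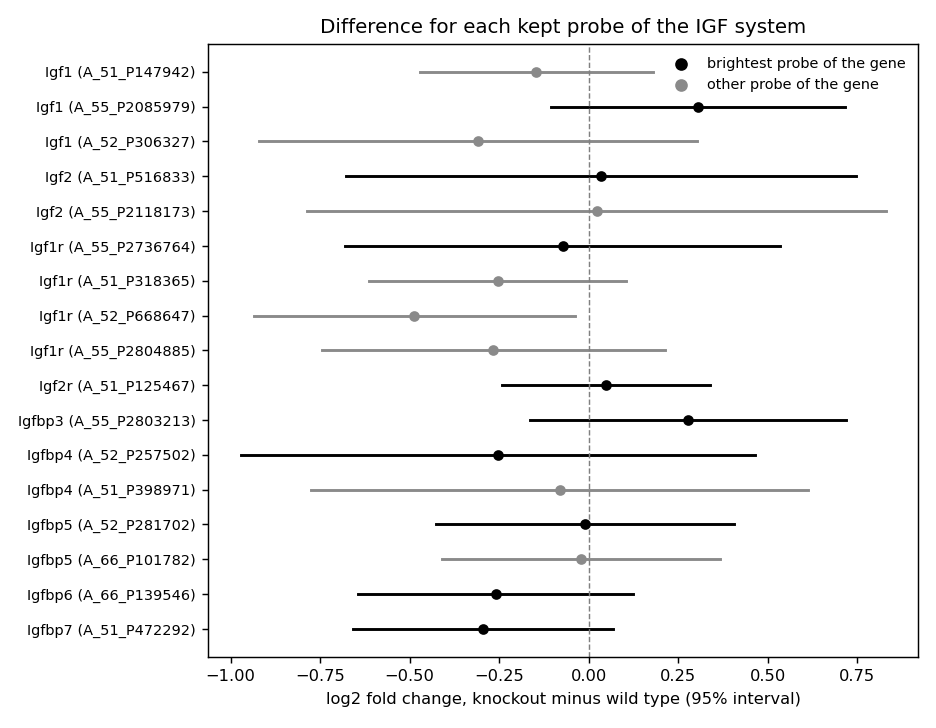
Log2 fold change, knockout minus wild type, with its 95% interval for each of the 17 kept probes, lead probes in black and other probes in grey. Every interval but that of the Igf1r clone probe A_52_P668647 (-0.93 to -0.04) crosses 0, and the Igf1 mRNA probes lie on opposite sides.

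Whether the 10 genes varied together from sample to sample was examined in relations chosen after the data were seen: 36 pairs of lead probes and 90 pairs of a marker list and a lead probe, each over 10 arrays with 100000 permutations. Of the 36 pairs, 0 passed Benjamini-Hochberg adjustment and 5 had an unadjusted Pearson p under 0.05. Igf2 and Igfbp3 had a Pearson r of 0.78 (permutation p = 0.0061, adjusted p = 0.164) and a Spearman rho of 0.79 (permutation p = 0.0095, adjusted p = 0.123). Without knockout replicates 3 and 5, the samples farthest from the median of Igf2, r was 0.82, within slide 2 it was 0.86, and after removal of the genotype means 0.84. Igf2 and Igfbp5 had an r of 0.79 (permutation p = 0.0092, adjusted p = 0.164) and a rho of 0.82 (permutation p = 0.0061, adjusted p = 0.123), with an r of 0.64 without the same pair of samples. Knockout replicates 3 and 4, the lowest samples for Igf2, had the dimmest arrays. The part of array brightness in these relations was not tested. Igf2r and Igfbp7 ran in opposite directions, with an r of -0.75 (permutation p = 0.0137, adjusted p = 0.164) and a rho of -0.78 (permutation p = 0.0103, adjusted p = 0.123), and an r of -0.89 without knockout replicate 3 and wild-type replicate 5.

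Of the 90 pairs with a marker list, 0 passed adjustment and 8 had an unadjusted Pearson p under 0.05. The fibroblast list and Igfbp4 had an r of 0.88 (permutation p = 0.0027, adjusted p = 0.120) and a rho of 0.79 (permutation p = 0.0088, adjusted p = 0.370). Without knockout replicates 1 and 4 the r was 0.47, so the size of the relation depends in large part on those 2 samples. With them included, r was 0.90 after removal of the genotype means and 0.87 within slide 2. The macrophage list and Igfbp4 had an r of 0.72 (permutation p = 0.0225, adjusted p = 0.375) and a rho of 0.47 (permutation p = 0.180), and an r of -0.24 without the same 2 samples. Igfbp7 had an r of 0.71 with the atrial list, 0.68 with the smooth muscle and pericyte list, 0.68 with the macrophage list and 0.68 with the endothelial list (permutation p of 0.0250, 0.0290, 0.0300 and 0.0333, adjusted p = 0.375 for each), with a rho of 0.72, 0.58, 0.75 and 0.64 (permutation p of 0.0225, 0.0881, 0.0164 and 0.0538). Without the 2 samples farthest from the median of each list those r were 0.90, 0.62, 0.47 and 0.46. After removal of the genotype means, over all arrays, they were 0.61, 0.78, 0.52 and 0.58. Igf2r and the smooth muscle and pericyte list had an r of -0.68 (permutation p = 0.0312, adjusted p = 0.375) and a rho of -0.60 (permutation p = 0.0731), with an r of -0.70 without knockout replicate 1 and wild-type replicate 2. The skeletal muscle list and Igf1 had an r of 0.85 (permutation p = 0.0019, adjusted p = 0.120) and a rho of 0.78 (permutation p = 0.0103, adjusted p = 0.370), with an r of 0.61 without knockout replicates 2 and 3. This holds for the lead probe of Igf1. Knockout replicate 3, the highest sample on that probe, had the dimmest array, and the part of array brightness was not tested.

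**Figure D4:**
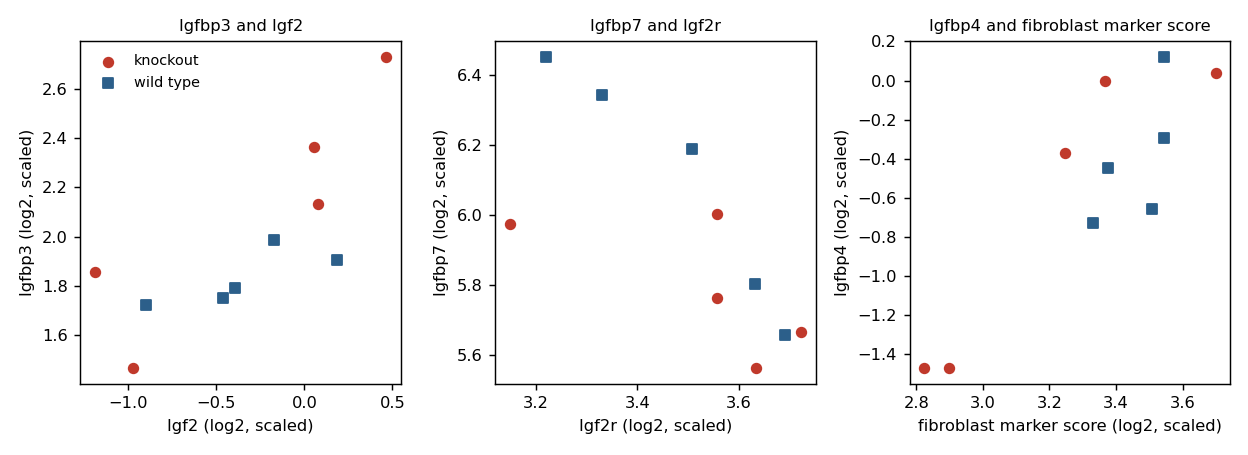
Scaled log2 signals of Igfbp3 against Igf2, of Igfbp7 against Igf2r, and of Igfbp4 against the mean of 8 fibroblast markers, 1 point per array, knockout as red circles and wild type as blue squares. Pearson r is 0.78, -0.75 and 0.88, and in the last panel knockout replicates 1 and 4 lie alone at the lower left.

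For Igf1, Igf2 and Igfbp7, the genes whose lead probe ran most closely with theirs over the 10 arrays were taken by Pearson r among 13899 other genes, a ranking that always yields high values and is a description. For Igf1 these were Csn3 (r = 0.953), Zscan10 (0.948), Sox21 (0.946) and Slc22a6 (0.943). For Igf2 they were Mid2 (0.943), Klhl13 (0.927), Cited1 (0.922) and Cenpf (0.916). For Igfbp7 they were Necap2 (0.972), Phlda3 (0.972), the matrix glycoprotein gene Sparc (0.963) and Ano6 (0.959). None of these 12 genes passed the test between genotypes, with adjusted p of 0.150 to 0.961 in limma.

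The rest of the growth hormone and IGF pathway was read from a list of 37 other genes, of which 33 had a kept probe and 67 probes were kept. Of the 67 probes, 3 rose and 1 fell, where 1.69% of all kept probes rose and 2.76% fell, with a median log2 fold change of -0.06. By lead probe 1 gene rose, 0 fell and 32 did not pass.

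Grb14, an adaptor that binds the insulin receptor and dampens its signal, rose on both of its bright probes. Probe A_51_P517215 read 5.24, 5.11, 5.10, 5.13 and 4.99 in knockout samples, against 4.67, 4.61, 4.79, 4.59 and 4.65 in wild-type samples, with every knockout sample above every wild-type sample. The log2 fold change was 0.45 ± 0.08 (SE, limma adjusted p = 0.0178), a 1.37-fold rise. The call was lost in 7 of 20 alternative settings, among them the fits without wild-type replicate 4 (limma adjusted p = 0.0503) and without wild-type replicate 5 (0.0521). Over the 20 settings the limma adjusted p ran from 0.0152 to 0.214. The second probe rose by 0.52 ± 0.12 (SE; limma adjusted p = 0.0414), while another, dim probe read -0.19 (limma adjusted p = 0.651). The call of the second probe was lost in 14 of 19 alternatives.

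Ghr, the growth hormone receptor, which drives Igf1 transcription through JAK2 and STAT5, rose on 1 of 4 probes. That probe, A_55_P2500473, read 2.28, 2.12, 2.15, 2.19 and 2.10 in knockout samples, against 1.59, 1.49, 1.86, 1.83 and 1.83 in wild-type samples, a log2 fold change of 0.45 ± 0.10 (SE; limma adjusted p = 0.0313). The samples did not overlap. The lead probe of Ghr read 0.19 (limma adjusted p = 0.384) and the others 0.15 and -0.08, and the call was lost in 13 of 19 alternatives, 7 of them fits without 1 sample.

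Socs2, a growth hormone target that feeds back on its receptor, fell on 1 of 4 probes. That probe, A_55_P2072586, read -2.94, -2.85, -3.43, -3.64 and -3.19 in knockout samples, against -2.67, -2.07, -2.59, -2.76 and -2.38 in wild-type samples, a log2 fold change of -0.72 ± 0.18 (SE; limma adjusted p = 0.0478). It was well above background on 3 of 5 knockout arrays, the call was lost in 17 of 19 alternatives, each of the 10 fits without 1 sample among them, and with normexp the value was -0.15. Its 3 brighter probes read -0.39, -0.26 and -0.38, with limma adjusted p of 0.149, 0.293 and 0.109.

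By group, the 6 growth hormone axis genes had 1 probe up and 1 down of 15, with a median log2 fold change of -0.07. The insulin receptor and adaptor group had 2 up, both of Grb14, and 0 down of 13 probes for 7 genes, with a median of 0.02. The downstream kinases and FoxO group had 0 of 28 probes for 12 genes, with a median of -0.05, and the carriers and proteases 0 of 6 probes for 5 of 8 genes, with a median of 0.19. The Igf2 mRNA-binding proteins and H19, the imprinted neighbour of Igf2, had 0 of 5 probes for 3 of 4 genes, with a median of -0.61. H19, named after its values were seen, read 3.03, 2.40, 0.79, -1.78 and 3.53 in knockout samples, against 3.42, 2.65, 1.45, 2.25 and 1.17 in wild-type samples on its bright probe. Knockout replicates 3 and 4, the lowest samples for Igf2, were also the lowest for H19, and its log2 fold change was -0.60 ± 0.90 (SE; limma adjusted p = 0.704). Knockout replicates 3 and 4 also had the dimmest arrays, and the part of brightness was not tested.

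**Figure D5:**
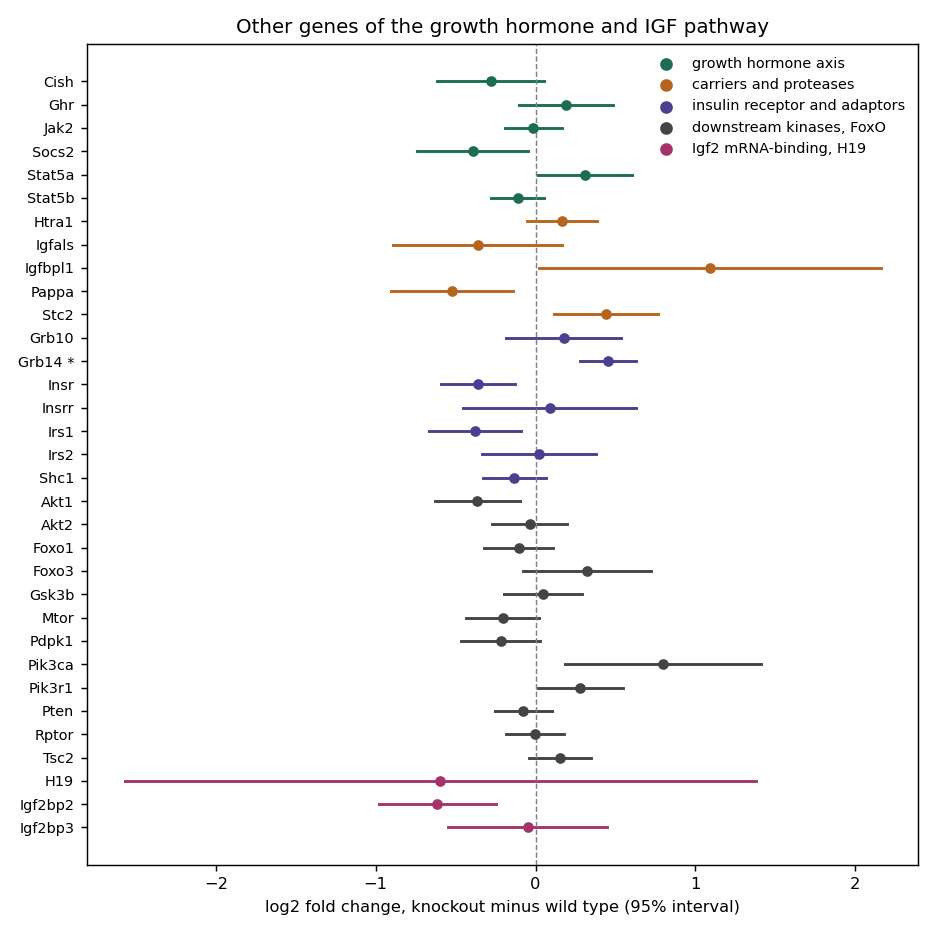
Log2 fold change, knockout minus wild type, with its 95% interval for the lead probe of each of the 33 other pathway genes with a kept probe, coloured by group; the star marks Grb14 (0.45), the lead probe with an adjusted p under 0.05. H19 has the widest interval, with a standard error of 0.90.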

How the data were processed

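RNA from 5 knockout and 5 wild-type samples was read on 10 arrays. The values used are linear spot intensity from the deposited scanner output. The scanner software was Agilent Feature Extraction 10.7.1.1, per the submitters' processing notes, and it subtracted background and removed spatial trends within each array, per the file headers. The authors also deposited a log2 value table of the same arrays, in which each column matched its own array best, with r of 0.958 to 0.998 after removal of probe means, against 0.570 at most for another array. All its columns share a median of 4.74. Its filter and background treatment are not given in the sources used here.

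From log2 of the processed intensity, the log2 of the 75th percentile of the same array was subtracted. Control and outlier spots were left out. A probe was kept if well above background on at least 4 of 5 arrays of at least 1 genotype. Knockout was compared with wild type by lmFit and eBayes of limma 3.58.1 under R 4.3.3, with no covariates and Benjamini-Hochberg adjustment over all 30693 kept probes, threshold 0.05. The number of arrays limits the precision. Tested on simulated data for this comparison (30677 probes, 200 changed), the fit recovered 15% of probes changed by 0.5 on the log2 scale, 75% at 1 and 95.5% at 2, and 6.25%, 8.54% and 5.91% of calls were false. The simulated probes were independent of each other, and the real fit called 1364 probes. These shares therefore need not hold for the real data. Other settings tried were normexp (offset 50) as the background correction, quantile normalization, all probes unfiltered, the deposited table, slide as a block, slide 2 alone, the replicate number as a block, marker scores as covariates, 1 probe per gene, and leaving out each sample. Named are all 10 genes with every probe, pathway genes that passed (up to 4 a direction), and 4 genes with the highest r for Igf1, Igf2 and the lead probe of smallest adjusted p, leaving out clone and predicted-gene names. The genes, lists and tests were chosen with earlier results of these data known. Array names are those of the files: 13 of 19 probes matched a RefSeq accession, every probe had 1 spot, and exon and intron annotation of mm9 was not used here.

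The marker lists were cardiomyocyte, atrial, fat, macrophage, fibroblast, endothelial, smooth muscle and pericyte, epicardial, liver and skeletal muscle. The atrial score used as a covariate was the mean of Myl7, Myl4 and Sln, without Nppa. The fat score was the mean of Cfd, Car3, Cidec and Retn, none of which was well above background on all 10 arrays.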

Additional observations from a re-analysis of the deposited data

Results flagged for a closer look

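Igf2r in knockout replicate 3 lay apart from the rest of its genotype. Its scaled log2 signal was 3.15, the lowest of the 5 knockout samples, and the nearest of the others was 3.56. The gap was 0.712 of the range of the group, just past the critical value of 0.71 for 5 samples. This was 1 of the 34 groups tested over 17 probes, where chance alone marks about 1 in 20. That array was also the dimmest of the 10, with a 75th percentile of 286 intensity units. Without knockout replicate 3 the log2 fold change of Igf2r was 0.14, against 0.05 with it.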

How the results depend on the processing

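Over 20 alternatives, which gave 332 values for the 17 probes, 0 probes passed in any, and 53 values of 12 probes changed sign, none larger than 0.30 in size. Igf1 lead, Igf1r A_51_P318365, Igfbp3 lead, Igfbp6 and Igfbp7 kept their sign throughout. With normexp the log2 fold change was -0.0054 for Igf2r, 0.10 for Igfbp4 A_51_P398971, 0.23 for Igf1 A_52_P306327, 0.047 for Igf1r A_52_P668647, 0.16 for Igf1r A_55_P2804885 and 0.15 for Igfbp5 A_66_P101782. With the atrial score it was -0.031 for Igf2r, 0.042 for Igfbp4 A_51_P398971, -0.19 for Igf2 A_51_P516833, 0.00037 for Igfbp5 A_52_P281702, -0.30 for Igf2 A_55_P2118173 and 0.16 for Igfbp5 A_66_P101782. With atrial and fat scores it was -0.012 for Igf2r, 0.089 for Igf1 A_51_P147942, 0.19 for Igfbp4 A_51_P398971, -0.14 for Igf2 A_51_P516833, 0.010 for Igfbp4 A_52_P257502, 0.062 for Igfbp5 A_52_P281702, -0.24 for Igf2 A_55_P2118173 and 0.18 for Igfbp5 A_66_P101782. With slide as a block, and on slide 2 alone, it was 0.031 for Igfbp4 A_51_P398971 and 0.17 for Igfbp5 A_52_P281702. With quantile normalization, and in the authors' deposited table, it was -0.037 for Igf2 A_55_P2118173. Leaving out 1 sample gave ranges that cross 0 for Igf1r A_55_P2736764 (-0.29 to 0.076), Igf2 A_51_P516833 (-0.16 to 0.25), Igf2 A_55_P2118173 (-0.19 to 0.25), Igf2r (-0.017 to 0.14), Igfbp4 A_51_P398971 (-0.25 to 0.15), Igfbp5 A_52_P281702 (-0.12 to 0.081) and Igfbp5 A_66_P101782 (-0.13 to 0.089). Pathway probes that passed numbered 4, against 11 with normexp, 8 with quantile normalization, 8 in the authors' deposited table, 2 with slide as a block, 1 on slide 2 alone, 1 with 1 probe per gene (fewer probes tested), 0 without the filter (more probes tested), 0 with the atrial score, 0 with both scores and 0 to 4 leaving out 1 sample. All probes that passed numbered 1364, against 4517 with normexp (3423 higher and 1094 lower, where the main values gave 518 and 846), 220 without the filter, 522 on slide 2 alone, 78 with the atrial score, 1 with both scores and 302 to 1224 leaving out 1 sample, the fewest without wild-type replicate 5. The replicate block left 0 pathway probes and 239 of all probes. Same-numbered samples did not deviate together, with correlations of -0.10 to 0.06. The labels name no pairing of samples, and these correlations cannot exclude one. Without the filter the median of all probes was 0.22. Apart from the numbers tested, the cause of these shifts was not tested. Signal over background limits Igfbp2, the clone probes of Igf1 and Igf1r and Igf2 A_55_P2118173, which are close to background in knockout arrays.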

Other observations

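The marker lists not described with the IGF genes gave these mean scaled log2 signals. Macrophage markers, all 9 kept, ranged over 1.43 to 1.97 in knockout and 1.94 to 2.21 in wild-type samples. Smooth muscle and pericyte markers ranged over 3.26 to 3.59 in knockout and 3.26 to 3.73 in wild-type samples, and skeletal muscle markers, 4 of 5 kept, over -0.35 to 0.92 and -0.56 to -0.16. Epicardial markers had 2 of 5 genes kept and lay at -0.98 to -0.80 in knockout and -0.72 to -0.60 in wild-type samples. Liver markers had 2 of 4 kept, with Alb and Apoa1 below the filter, at -4.00 to -3.04 in knockout and -4.07 to -2.998 in wild-type samples. Of all lists, the endothelial one alone had genes that passed by lead probe, 2 of 7, where 4.44% of all kept probes passed.

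Igf2bp2, an RNA-binding protein that holds Igf2 mRNA, just missed the threshold on both probes and is named after its values were seen. Probe A_51_P315682 read -2.30, -2.36, -2.27, -2.08 and -2.46 in knockout samples, against -1.92, -2.09, -1.80, -1.21 and -1.37 in wild-type samples, with a log2 fold change of -0.61 ± 0.17 (SE; limma adjusted p = 0.0599). Probe A_55_P2170737 gave -0.64 ± 0.17 (SE; limma adjusted p = 0.0598). Insr, the insulin receptor, also named after its values were seen, read -1.26 to -0.79 in knockout and -0.87 to -0.59 in wild-type samples on its lead probe, a log2 fold change of -0.36 ± 0.11 (SE; limma adjusted p = 0.0749). The other kept Insr probe, A_52_P6490, had the opposite sign, 0.07 ± 0.12 (SE; limma adjusted p = 0.723). Igfbp1, the neighbour of Igfbp3, was well above background on 0 of 5 knockout and 1 of 5 wild-type arrays.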
